A study of Mus musculus with 6 samples.

Results

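The genes described here mark microglia, the resident macrophages of the brain, or encode the chains of the complement protein C1q, which microglia make in the brain. The members were chosen by name: Aif1, Csf1r, Ctss, C1qa, C1qb, C1qc, Tyrobp, Trem2 and Cd68, 9 genes in all. Probe sets carrying 1 of these symbols in the platform annotation were found for 8 genes (11 probe sets), of 8251 named genes on the array. No probe set carried the name Trem2, so its signal is not analysed here, and only its promoter sequence is. The 6 arrays hold visual cortex RNA from wild-type adults of the C57Bl6 strain: 3 arrays of the deprived hemisphere, contralateral to the eye removed by monocular enucleation, and 3 of the non-deprived hemisphere, ipsilateral to it. Per the labels' protocols, 4 mice lost the eye at postnatal day 100 and were killed 4 days later, so both groups come from operated animals and no array is from an unoperated mouse. The design text speaks of pooled samples. Whether the 3 arrays of a group are separate pools is not stated. The p-values thus measure the spread between these arrays, shared in part across probe sets of similar signal, and this spread may be technical.

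C1q is the recognition part of the classical complement pathway. It is assembled from A, B and C chains, and bound C1q leads through the proteases C1r and C1s to cleavage of C4, C2 and C3; in the developing visual pathway C1q and C3 are known to tag synapses that microglia then remove. Microglia depend on the receptor Csf1r, which binds the growth factors Csf1 and Il34. Tyrobp is a membrane adaptor that passes signals from receptors such as Trem2 to the kinase Syk, Aif1 (Iba1) is an actin-binding protein used as a microglial stain, Ctss is a lysosomal protease and Cd68 a lysosomal membrane protein of phagocytes.

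Values are MAS5 signal, an arbitrary brightness unit computed for each probe set from its matching and mismatched probes. Array medians lay between 202.8 and 219.7, and log2 signals of any 2 arrays correlated across probe sets at 0.950 to 0.964. Signal of 18S ribosomal RNA, on its 3′ control, was 661 to 981 in the 3 deprived arrays and 905 to 2689 in the non-deprived ones, where replicate 3 held the 2689 and replicate 1 came next at 979. The hemispheres did differ in an activity-dependent gene: Fos, an immediate-early transcription factor subunit, read 758.2, 602.1 and 749.3 in deprived arrays and 2837.1, 2784.2 and 3217 in non-deprived arrays. Its log2 change, deprived minus non-deprived, was -2.05 (SE 0.12, limma adjusted p = 0.00014). Log2 changes here are taken on signal plus 16, which makes changes of dim probe sets smaller than on the linear scale. Of the neuron markers listed, 11 of 11 measured genes lay above the signal filter described next.

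A filter kept the brightest 60% of probe sets by their mean across arrays, and these 7453, with means of at least 134.7, were tested together. Of the members, 7 of 8 genes and 9 of 11 probe sets passed this filter. Tyrobp, with a mean signal of 231.7, was the dimmest tested member on its brightest probe set, and Aif1, at 43.7, was the member left out. Detection calls were not used here, and 9 of 22 measured genes of other organs (liver, pancreas, testis, muscle and the like) also passed, so passing does not show that a transcript was present.

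No tested member passed the test between the hemispheres. By limma, 0 of 7 tested member genes had an adjusted p under 0.05 in either direction, where 0.174% of all tested probe sets did (13 of 7453; 0.0134% higher and 0.161% lower in deprived cortex). None had an unadjusted p under 0.05 either, against 5.09% of all tested probe sets, and adjusted p-values ran from 0.967 to 0.994. Of the 7, 6 had a higher and 1 a lower mean log2 signal in deprived cortex, with a median log2 change of 0.063. Over all tested probe sets 52.2% had a higher mean log2 signal in deprived cortex. The median over all tested probe sets was 0.0100. Over all 8 measured genes, Aif1 included, the median was 0.060. The 95% intervals of the 7 tested members ran together from 0.675-fold to 1.54-fold. In whole tissue, the number of microglia and the amount of RNA per cell cannot be told apart.

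**Figure D1:**
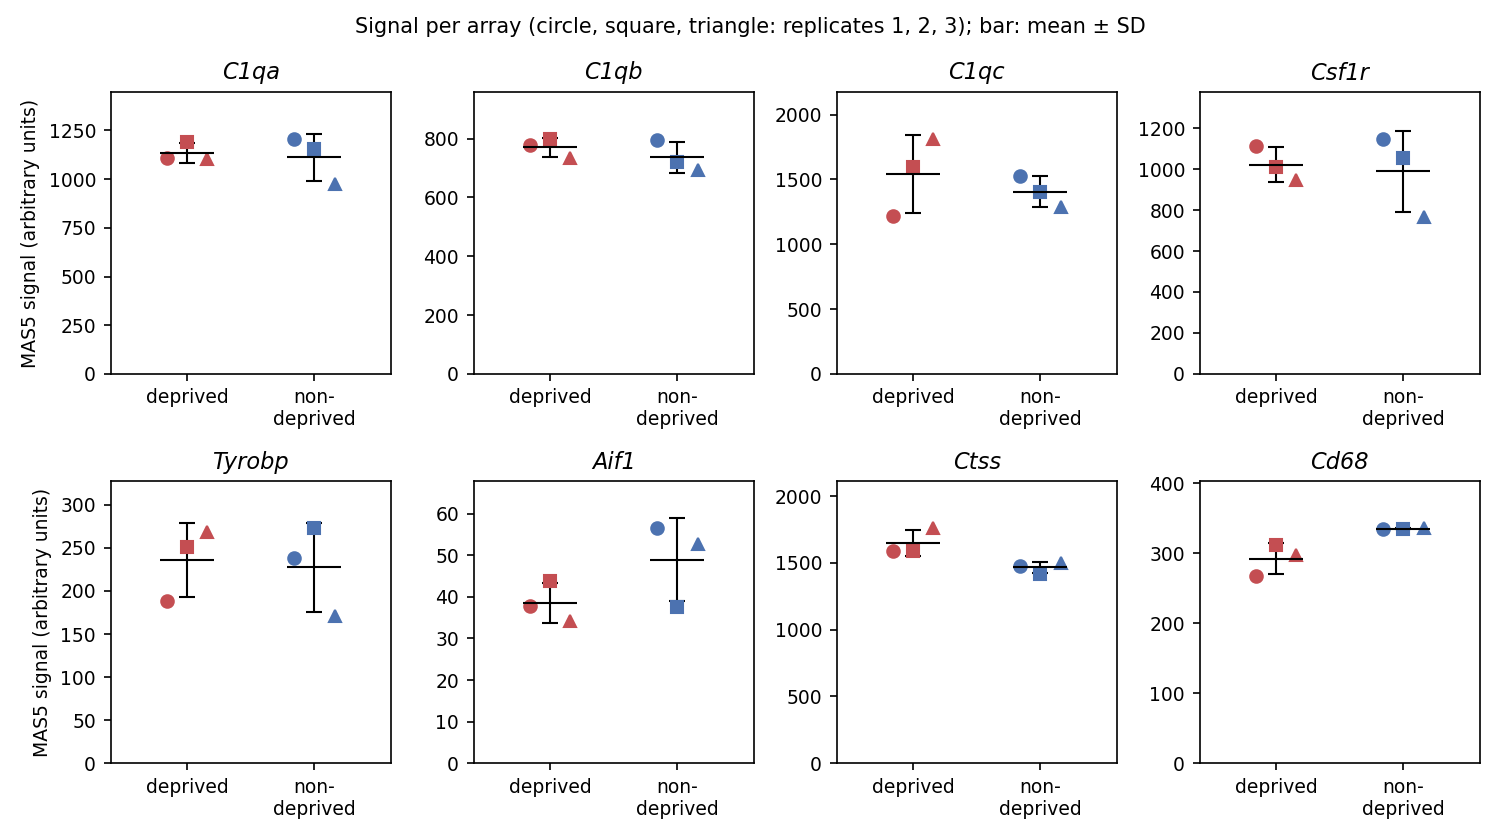
MAS5 signal (arbitrary units) of the brightest probe set of each measured member in the 3 deprived (red) and 3 non-deprived (blue) arrays, with circle, square and triangle for replicates 1, 2 and 3 and bars for the mean ± SD. The groups overlap for 6 of the 8 genes, the untested Aif1 included. The deprived arrays all lie above the non-deprived ones for Ctss (1588 to 1760 against 1420 to 1501). They all lie below for Cd68 (267.4 to 311 against 334.2 to 335.6). Groups did not overlap for 10.1% of all tested probe sets, 5.50% with deprived higher and 4.59% with deprived lower.

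The 3 chains of C1q had log2 changes between 0.034 and 0.12, none past the threshold, and the groups' arrays overlapped for each. C1qa, the A chain, read 1107.9, 1192.7 and 1104.1 in deprived arrays and 1205.9, 1154.2 and 975.2 in non-deprived arrays. The non-deprived arrays held both the highest and the lowest of these 6 values. The means were 1135 ± 50.1 in deprived and 1112 ± 121 in non-deprived arrays (SD, n = 3 each), a log2 change of 0.034 (SE 0.12, interval 0.851-fold to 1.23-fold, limma adjusted p = 0.990).

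C1qb, the B chain, read 777.3, 798.4 and 734.2 in deprived arrays and 795.5, 719.4 and 693.2 in non-deprived arrays. The deprived values lay inside or just above the non-deprived range. The means were 770.0 ± 32.7 in deprived and 736.0 ± 53.1 in non-deprived arrays (SD, n = 3 each), a log2 change of 0.065 (SE 0.12, interval 0.867-fold to 1.26-fold, limma adjusted p = 0.976). A second C1qb probe set, whose _i suffix marks a design that used fewer probes than usual, read 386.9, 335.6 and 302.1 in deprived and 260.7, 487 and 296.6 in non-deprived arrays. It was noisier, with a log2 change of 0.017 (SE 0.24).

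C1qc, the C chain, was the most variable of the 3 chains among deprived arrays. It read 1218.5, 1597.8 and 1812.2 there and 1525.3, 1407.1 and 1283.9 in non-deprived arrays. Deprived replicate 1 was the lowest of all 6 arrays and deprived replicate 3 the highest. The means were 1543 ± 301 in deprived and 1405 ± 121 in non-deprived arrays (SD, n = 3 each), a log2 change of 0.12 (SE 0.15, interval 0.861-fold to 1.37-fold, limma adjusted p = 0.967). Without deprived replicate 1 the log2 change was 0.28, and without deprived replicate 3 it was -0.0067, neither past the threshold.

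The median log2 change of the 3 chains was 0.065. RefSeq's mouse table (GRCm38.p6) places C1qb, C1qc and C1qa side by side on chromosome 4 with no other annotated gene between them. The promoters of 6 members were in the RefSeq promoter table (Aif1, C1qb, C1qc, Cd68, Ctss and Trem2, the last not measured on the arrays), each 300 bases long. They were searched on both strands for GAGGAA, the core letters that the myeloid transcription factor PU.1 (gene Spi1) binds, and for GAGGAAGT, a longer form that contains it. GAGGAA was in 6 of the 6 member promoters and in 28.3% of 32851 promoters of the same length. The longer GAGGAAGT was in 2 of the 6, C1qc and Ctss, and in 3.20% of all. Both motifs were chosen after the promoter sequences had been read, so these counts are a description and not a test. A match is a description of the letters and not a binding site. The stretches around the match are shown for C1qb, whose promoter holds GAGGAA only, and for C1qc, whose promoter holds GAGGAAGT. The match is in capitals in both stretches, so that the letters can be seen beside the values. Both are read in the direction of the gene, on the minus strand of GRCm38.p6, from chr4:136886201-136886256 for C1qb (match at -30 from the annotated start) and chr4:136893076-136893135 for C1qc (match at -195, as the reverse complement).
C1qb: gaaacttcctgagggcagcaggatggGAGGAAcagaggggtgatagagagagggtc
C1qc: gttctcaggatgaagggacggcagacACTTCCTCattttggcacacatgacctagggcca

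Csf1r, the receptor on which microglia depend, read 1111.2, 1009.9 and 946.2 in deprived arrays and 1147, 1055.9 and 767.5 in non-deprived arrays. The deprived values lay wholly within the non-deprived range, whose low end was replicate 3. The means were 1022 ± 83.2 in deprived and 990.1 ± 198 in non-deprived arrays (SD, n = 3 each), a log2 change of 0.063 (SE 0.16, interval 0.817-fold to 1.34-fold, limma adjusted p = 0.983). The other Csf1r probe set, whose _r suffix marks a design with relaxed rules, ran the other way. It read 420.7, 568 and 368.1 in deprived and 382.4, 442 and 651.9 in non-deprived arrays, a log2 change of -0.11 (SE 0.23). On this probe set non-deprived replicate 3 was the highest array, while on the brighter one it was the lowest.

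Tyrobp, the adaptor of Trem2, read 187.8, 251.6 and 268.5 in deprived arrays and 237.9, 272.9 and 171.5 in non-deprived arrays. Both the highest and the lowest value were non-deprived. The means were 236.0 ± 42.6 in deprived and 227.4 ± 51.5 in non-deprived arrays (SD, n = 3 each), and the log2 change was 0.058 (SE 0.25, limma adjusted p = 0.994). Its interval of 0.705-fold to 1.54-fold was the widest of the 7 tested members.

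Aif1, the gene of the stain Iba1, read 37.7, 43.7 and 34.1 in deprived arrays and 56.5, 37.6 and 52.6 in non-deprived arrays. These signals lie under the filter and are not shown to be above background. With no filter, the log2 change was -0.24 (SE 0.31, interval 0.522-fold to 1.37-fold, limma adjusted p = 0.982).

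The lysosomal members Ctss and Cd68 were those whose groups did not overlap, and they ran in opposite directions. Ctss read 1591.8, 1587.7 and 1759.6 in deprived arrays and 1480.2, 1419.7 and 1500.9 in non-deprived arrays. Every deprived value was above every non-deprived one. The means were 1646 ± 98.1 in deprived and 1467 ± 42.2 in non-deprived arrays (SD, n = 3 each), a log2 change of 0.16 (SE 0.10, interval 0.962-fold to 1.30-fold, unadjusted p = 0.128 and adjusted p = 0.967 by limma).

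Cd68 read 267.4, 311 and 297.4 in deprived arrays and 334.2, 334.5 and 335.6 in non-deprived arrays. Every deprived value was below every non-deprived one, and the non-deprived values were nearly identical. The means were 291.9 ± 22.3 in deprived and 334.8 ± 0.737 in non-deprived arrays (SD, n = 3 each), a log2 change of -0.19 (SE 0.17, interval 0.675-fold to 1.14-fold, unadjusted p = 0.285 and adjusted p = 0.967 by limma). The SE draws in part on other probe sets of similar signal. With no intensity trend in the fit, the SE was 0.11 (unadjusted p = 0.138 and adjusted p = 0.970 by limma). The _s suffix of this probe set marks probes that can match several transcripts. The other Cd68 probe set, an _i design, read 22.2, 13.6 and 5.8 in deprived and 15.1, 8.4 and 26.2 in non-deprived arrays, under the filter.

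Non-overlap in 2 of 7 tested members compares with 10.1% of all tested probe sets whose groups did not overlap, 5.50% with deprived higher and 4.59% with deprived lower. With so few members this count is a description, and neither gene passed the test across all probe sets. The promoter stretches of these genes with GAGGAA before the annotated start are chr3:95526596-95526653 for Ctss (plus strand, match at -164) and chr11:69666364-69666420 for Cd68 (minus strand, match at -225), on GRCm38.p6 and with the match in capitals. The Ctss match to GAGGAAGT begins at -2 and spans the start, so it is not printed.
Ctss: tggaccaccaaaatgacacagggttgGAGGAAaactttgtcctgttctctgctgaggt
Cd68: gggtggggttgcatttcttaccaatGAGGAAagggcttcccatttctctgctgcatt

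**Figure D2:**
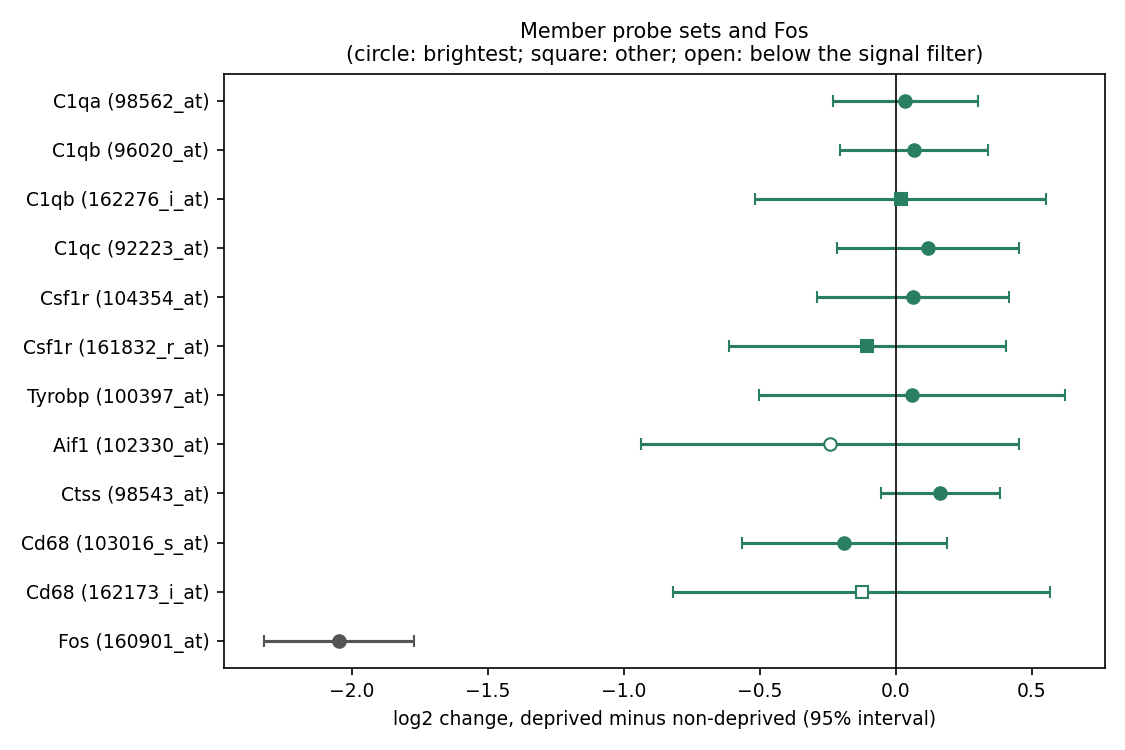
Log2 change, deprived minus non-deprived, with its 95% interval for the 11 member probe sets (green; circle for the brightest of a gene, square for another, open where the probe set lay below the signal filter) and for Fos (grey). Each member interval includes 0, and the Fos change is -2.05.

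Arrays of the same hemisphere also differed among themselves. Each member was set against its own mean over the 6 arrays, and the 7 tested members were averaged per array. On this log2 scale the average was -0.074, 0.068 and 0.073 in deprived replicates 1, 2 and 3, and 0.075, 0.030 and -0.17 in non-deprived replicates 1, 2 and 3. Non-deprived replicate 3 was thus the lowest array, and it held the lowest value of 4 of the 7 tested members (Csf1r, C1qa, C1qb and Tyrobp). It is also the array with the high 18S signal, whose part in this was not tested. For the C1q chains alone the averages were -0.076, 0.10 and 0.084 in deprived and 0.082, -0.025 and -0.17 in non-deprived arrays.

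**Figure D3:**
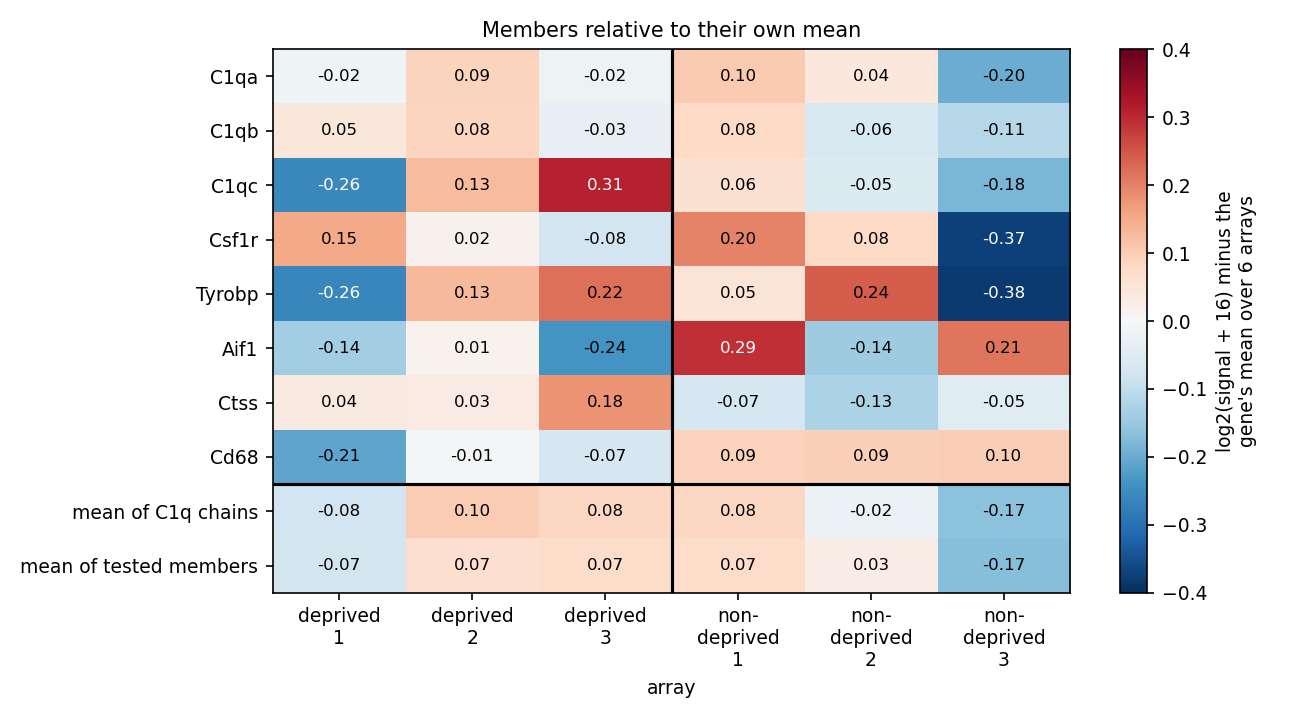
Each measured member's log2(signal + 16) minus its mean over the 6 arrays (colour and number), with deprived arrays left of non-deprived ones and the averages of the C1q chains and of the 7 tested members in the last rows. Non-deprived replicate 3 has the lowest average of the tested members (-0.17), while Ctss is positive in all deprived and negative in all non-deprived arrays, and Cd68 the reverse.

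The sign of 4 tested members depended on which arrays were used. Without non-deprived replicate 3, the log2 change was -0.11 for Csf1r, -0.056 for C1qa and -0.12 for Tyrobp, and the median over the 8 measured members was -0.082 in place of 0.060. C1qa was also below 0 without deprived replicate 2 (-0.0016), and C1qc (-0.0067) and Tyrobp (-0.037) were below 0 without deprived replicate 3. Ctss, C1qb, Cd68 and Aif1 kept their sign whichever array was left out. The log2 change of Ctss lay between 0.12 and 0.19 in those fits, that of C1qb between 0.024 and 0.12, that of Cd68 between -0.24 and -0.13 and that of Aif1, with no filter, between -0.38 and -0.16. With any 1 array left out, 0 tested members passed.

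**Figure D4:**
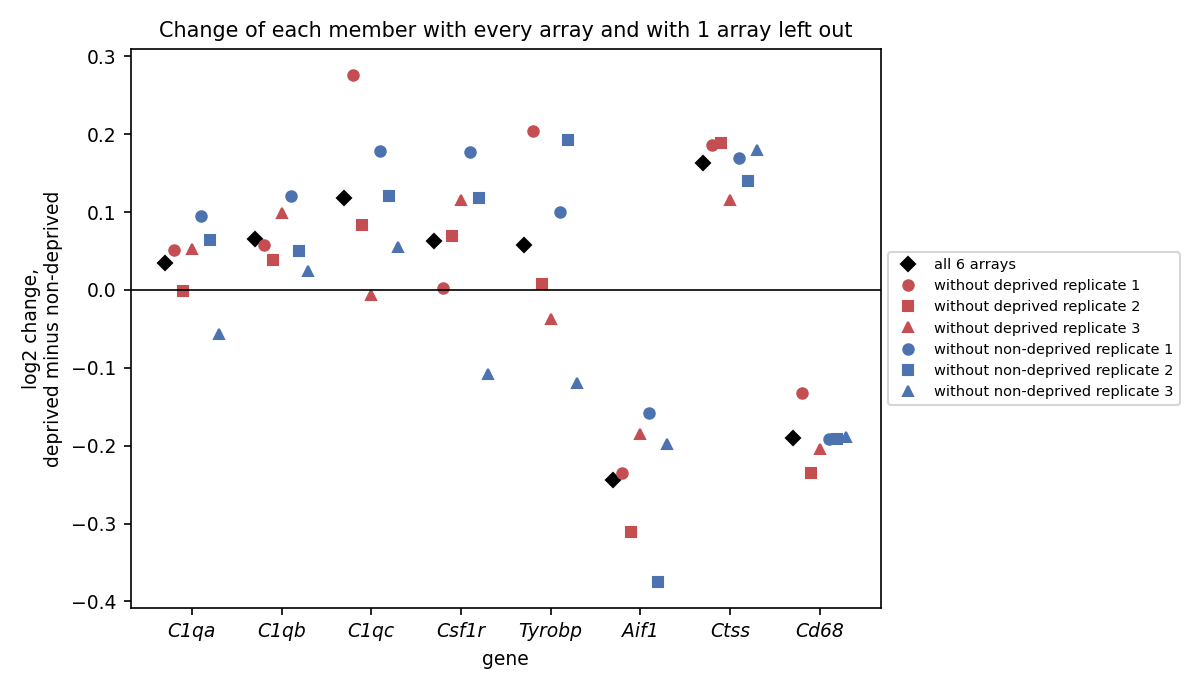
Log2 change, deprived minus non-deprived, of the 8 measured members with all 6 arrays (black) and without each deprived (red) or non-deprived (blue) array in turn. C1qa, C1qc, Csf1r and Tyrobp lie on both sides of 0, from -0.12 to 0.28, and Ctss stays above 0 at 0.12 to 0.19.

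Other genes of the same cells and pathways were counted from lists chosen by function. Of 44 further microglial surface and signalling genes, 30 were measured and 15 tested, of which 0 passed in either direction and 0 had an unadjusted p under 0.05 (median log2 change -0.021). The tested genes with the smallest p were Cyba, a subunit of the phagocyte oxidase (0.28, SE 0.17), and Cd83, an activation marker (0.65, SE 0.41). These counts leave out the 15 measured genes under the filter, which changed in both directions. With no filter, the smallest p of these belonged to Lyz2 (-1.17, SE 0.46) and Lcp1 (0.90, SE 0.37). Both had an unadjusted p under 0.05 and an adjusted p of 0.955 by limma. Several genes that define microglia were dim here. Itgam, a subunit of complement receptor CR3, averaged 59.6 in deprived and 38.7 in non-deprived arrays. Its partner Itgb2 averaged 45.6 in deprived and 33.9 in non-deprived arrays, and Ptprc (CD45) averaged 19.2 in deprived and 16.5 in non-deprived arrays. With no filter, their log2 changes were 0.43 (SE 0.34), 0.36 (SE 0.40) and 0.11 (SE 0.24), with adjusted p of 0.980, 0.982 and 0.991 by limma. These 3, and Cx3cr1, C1ra, Clu, C3ar1, Spi1, Syk and Apoe in what follows, were singled out for their roles after their values were seen. Cx3cr1, the microglial receptor of fractalkine, read 459.9, 691.7 and 483.8 in deprived and 531.1, 755.5 and 719.4 in non-deprived arrays, a log2 change of -0.29 (SE 0.20, limma adjusted p = 0.967).

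Of 36 complement genes beyond C1q, 26 were measured and 11 tested. None passed in either direction, 0 had an unadjusted p under 0.05, and 10 of the 11 had a lower mean log2 signal in deprived cortex (median -0.099), where 47.8% of all tested probe sets did; 7 of these 10 log2 changes were smaller than their SE. C2, the protease component cleaved after C1q has bound, read 149.2, 214.7 and 198.7 in deprived and 250, 226.2 and 316.9 in non-deprived arrays. These groups did not overlap, and the log2 change was -0.46 (SE 0.24, limma adjusted p = 0.967). C5ar1, the receptor for the C5a fragment, had a log2 change of -0.24 (SE 0.20). C1ra, the protease that C1q activates, had -0.049 (SE 0.22) on an _f probe set, which can match a gene family, and Clu, a fluid-phase complement inhibitor, had -0.015 (SE 0.11). The receptor C3ar1 was under the filter, with means of 118 in deprived and 117 in non-deprived arrays. The counts above leave out the 15 measured genes under the filter, which changed in both directions. With no filter, the smallest p of these belonged to Hc (-1.32, SE 0.35, limma adjusted p = 0.673) and C9 (0.88, SE 0.35, limma adjusted p = 0.955).

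Around Csf1r, 22 genes of its ligands, adaptors and the transcription factors of myeloid cells were listed, 19 measured and 11 tested, with 0 past the threshold, 0 under an unadjusted p of 0.05 and a median of 0.058. Csf1, the ligand, read 696.8, 625.6 and 519.3 in deprived and 618.7, 491 and 373.6 in non-deprived arrays. The groups overlapped, and the log2 change was 0.32 (SE 0.20, limma adjusted p = 0.967). Pik3r1, a regulatory subunit of PI3 kinase, had 0.23 (SE 0.16). Spi1, which encodes PU.1, read 292.1, 179.4 and 165.1 in deprived and 247, 161.2 and 51.7 in non-deprived arrays, a log2 change of 0.60 with a wide error (SE 0.48).

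For Trem2 and Tyrobp signalling and the genes of activated microglia, 35 were listed, 30 measured and 14 tested. None passed, 0 had an unadjusted p under 0.05, and the median was 0.061. The smallest p belonged to Csf2ra, a cytokine receptor chain (0.41, SE 0.24), and Pik3cd, a catalytic subunit of PI3 kinase (-0.60, SE 0.41). Syk, the kinase that Tyrobp recruits, had a log2 change of -0.021 (SE 0.17), with means of 708 ± 143 in deprived and 714 ± 102 in non-deprived arrays (SD, n = 3 each). Apoe, a lipid carrier and Trem2 ligand, had 0.091 (SE 0.091).

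The lysosomal list, 36 genes with 33 measured and 30 tested, had a median of -0.0021, with 15 members above 0 and 15 below. None passed the adjusted threshold and 2 of the 30 had an unadjusted p under 0.05, where 5.09% of all tested probe sets did. Laptm4a, a lysosomal membrane protein, read 7113.8, 6546.9 and 7026.4 in deprived and 3278.3, 4655.4 and 4959.9 in non-deprived arrays. Its groups did not overlap, and its log2 change was 0.70 (SE 0.14, limma adjusted p = 0.224). Gm2a, the ganglioside activator protein, had 0.64 (SE 0.24, limma adjusted p = 0.950), with overlapping groups. Ctss belongs to the same compartment and had the smaller log2 change given above, 0.16.

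**Figure D5:**
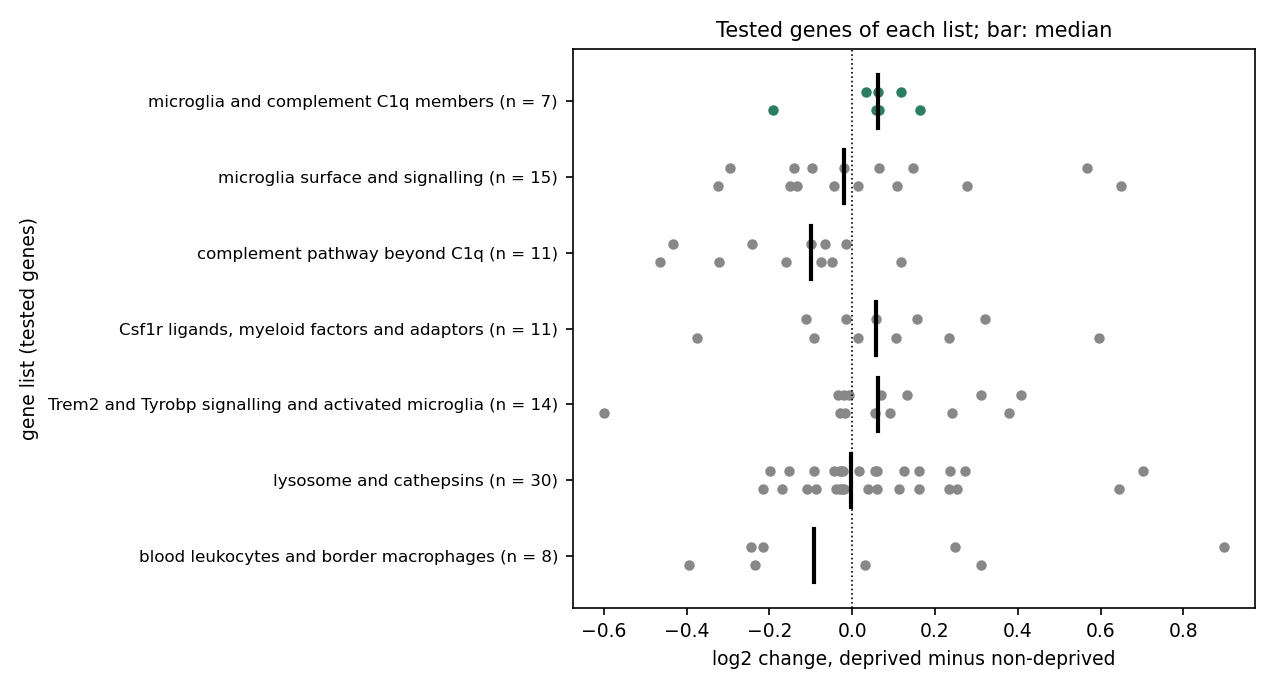
Log2 change, deprived minus non-deprived, of each tested gene in the member list (green, n = 7) and in 6 further lists (grey), with a black bar at each list's median. The medians lie between -0.099 and 0.063, and the genes farthest to the right are Cd79a at 0.90 and Laptm4a at 0.70.

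Blood leukocytes and macrophages of the brain's borders express several of the members too. Of 34 such genes, 28 were measured and 8 tested, with a median of -0.093. Of the 8, 0 passed and 1 had an unadjusted p under 0.05, where 5.09% of all tested probe sets did. The summed signal of the 28 was 3182 to 3613 in deprived and 3445 to 3665 in non-deprived arrays. The 8 above the filter were Cd79a, Cd4, Cd74, Camp, Plac8, H2-Eb1, Elane and Ms4a1, and the other 20 lay under it. The tested gene with an unadjusted p under 0.05 was Cd79a, a B cell receptor subunit. It read 232.7, 227.1 and 274.1 in deprived and 134.4, 121.3 and 115.4 in non-deprived arrays, a log2 change of 0.90 (SE 0.25, limma adjusted p = 0.725). The other tested gene of smallest p was Cd4 (-0.39, SE 0.25). With no filter, Msr1 (-1.13, SE 0.40), Mmp8 (-0.84, SE 0.33) and Cd79b (0.91, SE 0.39) had the smallest p of the 20 under it. Their unadjusted p was under 0.05, and their adjusted p was 0.949, 0.955 and 0.955 by limma. The members' own summed signal was 6300 to 6956 in deprived and 5780 to 6783 in non-deprived arrays.

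Markers of the cortex's other cells had 0 genes past the threshold by limma, and 1 neuronal and 1 astrocyte gene under an unadjusted p of 0.05. Of all tested probe sets, 5.09% had such a p. Neuronal genes (11 tested) had a median log2 change of -0.080, with the smallest p for the tubulin gene Tubb3 (-0.18, SE 0.071, on an _f probe set) and the neurofilament gene Nefl (-0.19, SE 0.12). Astrocyte genes (9 tested) had 0.068, led by the glycolytic enzyme gene Aldoc (-0.25, SE 0.096) and Ndrg2 (0.16, SE 0.12). Oligodendrocyte genes (7 tested) had 0.064, led by the transcription factor gene Sox10 (0.24, SE 0.11) and the tight junction gene Cldn11 (0.21, SE 0.16). Endothelial genes (6 tested) had -0.077, led by the tight junction gene Cldn5 (0.40, SE 0.19) and the glucose transporter gene Slc2a1 (-0.27, SE 0.19). Red blood cell genes (3 tested) had -0.081, led by Slc4a1 (-0.29, SE 0.49) and Hbb-b2 (-0.081, SE 0.15), and genes of other organs (9 tested) 0.018, led by Ctrb1 (-0.37, SE 0.23) and Acta1 (-0.42, SE 0.26). The median of the 7 tested members, 0.063, lay within the range of these list medians.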

How the data were processed

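The values used are intensity, the linear MAS5 signal that the authors deposited for 12488 probe sets on 6 arrays; the tool's name comes from the submitters' processing notes, and its settings are not given in the sources used here. The deposited intensity columns shared a 2% trimmed mean of 500.3, so no further scaling was applied, and any change in total mRNA is hidden. Gene names came from the platform annotation: 10855 probe sets had 1 symbol, 396 had several and 1237 were unnamed here; 10839 were matched by Entrez ID to RefSeq's table (GRCm38.p6, used for names and neighbours), and 0 symbols changed. Control probe sets (66) stayed out of the tests.

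The brightest 60% of the others by mean signal (7453) were fitted on log2(signal + 16) with limma 3.58.1 in R 4.3.3 (lmFit, eBayes with an intensity trend, group as the only term), two-sided, with Benjamini-Hochberg adjustment over all tested and a threshold of 0.05. Dim members were read from the same fit with no filter. Intervals are the fit's 95% intervals, given as folds on the log2(signal + 16) scale; the number of arrays limits their precision. A gene is given by its brightest probe set, with its others named. The fit was tested on simulated arrays with independent noise and planted changes larger than that of any member. That run does not show how well changes as small as the members' are found. Members and lists were chosen with earlier results of these data known. Beside the members, every probe set of which is given, the rule named Fos and, since no list gene passed, the 2 tested genes of smallest p in each list; others are marked as singled out, or are named only to account for a list. The promoter motifs were chosen after the promoter sequences had been read. Same-numbered arrays had correlations of deviations of 0.0030, 0.049 and -0.020, and differently numbered ones ran from -0.098 to 0.10. The numbers were not treated as pairs. With 3 arrays per group, these correlations cannot decide whether the arrays were paired. These correlations concern the replicate numbers only and cannot show that the arrays of the hemispheres are independent.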

Additional observations from a re-analysis of the deposited data

How the results depend on the processing

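No member passed under any of the 16 alternatives tried: quantile normalization, scaling to a common median, pseudocounts of 1 and 64, no filter, the top 40% by signal (where Tyrobp and Cd68 were no longer tested), the replicate block, 1 value per gene, no intensity trend, an adjusted p under 0.10, and each array left out. The number of probe sets passing over the whole table was 13, between 9 and 14 under the first 10 of these and 7 to 10 with 1 array left out (8 without deprived replicate 3, and 7 and 8 without replicates 2 and 3 of the non-deprived hemisphere). With the replicate number as a block it was 10, with 0 members, and the members' log2 changes were the same. Over the fits without 1 array, the median over the 8 members ran from -0.082 (without non-deprived replicate 3) to 0.11, that of the C1q chains from 0.024 to 0.12, Csf1r from -0.11 to 0.18, C1qa from -0.056 to 0.095, C1qc from -0.0067 to 0.28 and Tyrobp from -0.12 to 0.20. Csf1r also changed sign, to -0.021, as the mean of its 2 probe sets, which run in opposite directions. The smallest adjusted p that any tested member reached was 0.778, for Ctss. The least can be said of members dimmer than the filter and of Tyrobp. Tyrobp passed the filter, but its interval of 0.705-fold to 1.54-fold was the widest among the tested members. Detection calls were not used, so any part of background in that width was not tested.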
